A study of Mus musculus with 4 samples.

Results

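The type II cadherins Cdh6, Cdh7, Cdh8, Cdh9, Cdh10, Cdh11, Cdh12, Cdh18, Cdh19 and Cdh20 were followed in ATAC-Seq data, which count insertions of the Tn5 transposase and so report how open chromatin is. A site, meaning a region of enriched reads in the merged peak table, belonged to one of these genes if it overlapped the gene body or lay within 100 kb of an annotated transcription start site (TSS; GENCODE annotation, mm10). This gave 47 of the 82325 sites, in 7 of the 10 genes. Cdh18 had 21 sites, Cdh11 had 13, Cdh10 had 6, Cdh6 had 3, Cdh12 had 2, and Cdh7 and Cdh20 had 1 each. No site fell in the loci of Cdh8, Cdh9 and Cdh19. The genes lie on chromosome 15 (Cdh6, Cdh9, Cdh10, Cdh12 and Cdh18), chromosome 1 (Cdh7, Cdh19 and Cdh20) and chromosome 8 (Cdh8 and Cdh11).

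The cells were imMEFs, mouse embryonic fibroblasts of the C57bl6 background. They came from mid-gestation embryos and all 4 lines were immortalized with the SV40 large T antigen. The 2 HAT1 WT lines (Hat1+/+) were compared with 2 HAT1 KO lines (Hat1-/-), which lack the acetyltransferase of newly made histone H4, to ask where chromatin accessibility depends on HAT1. Each library came from a separate line, so the spread within a genotype is that between 2 lines. The lines were passaged after transfection with the large T plasmid.

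Type II cadherins are calcium-dependent adhesion molecules whose extracellular repeats bind cadherins on the next cell, mostly of the same or a related type. Their cytoplasmic tails bind p120-catenin and beta-catenin, which join them through alpha-catenin to actin. Most of them are best known from the developing nervous system, where combinations of them sort neurons and mark synaptic partners. Cdh11 (OB-cadherin) is the one known for mesenchyme and fibroblasts, and Cdh6 (K-cadherin) is known from kidney and neural crest. Many of these genes are very long and stand alone in AT-rich, gene-poor stretches of the genome.

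The sequences of the 7 regions on which the results turn are given first. These are the promoters that overlapped a site, and the distal sites with the clearest separation between genotypes together with the only Cdh7 site. Promoters run from 250 bases before to 50 after the start and are from RefSeq (GRCm38, which is mm10), read in the direction of the gene. The RefSeq promoter table held 8 of the 10 genes and not Cdh11 or Cdh19. The distal sequences are the central 300 bases of the site on the plus strand. Capitals mark matches on either strand to TGANTCA (the AP-1 motif), GGAATG (TEAD), TGTGGT (RUNX) or CAGCTG (an E-box).
Cdh6 promoter, chr15:13173626-13173925, minus strand: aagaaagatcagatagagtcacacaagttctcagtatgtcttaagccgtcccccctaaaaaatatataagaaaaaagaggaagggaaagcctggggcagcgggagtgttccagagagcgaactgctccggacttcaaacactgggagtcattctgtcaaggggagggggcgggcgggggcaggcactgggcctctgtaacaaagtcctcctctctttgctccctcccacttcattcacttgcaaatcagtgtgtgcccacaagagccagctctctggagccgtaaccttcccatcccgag
Cdh6 intronic site, chr15:13076861-13077160, plus strand: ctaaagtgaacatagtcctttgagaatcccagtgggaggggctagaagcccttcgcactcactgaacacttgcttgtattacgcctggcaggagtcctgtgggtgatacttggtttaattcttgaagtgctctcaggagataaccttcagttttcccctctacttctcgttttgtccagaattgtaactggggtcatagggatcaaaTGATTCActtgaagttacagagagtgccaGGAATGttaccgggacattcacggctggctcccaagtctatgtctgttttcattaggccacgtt
Cdh7 upstream site, chr1:109892417-109892716, plus strand: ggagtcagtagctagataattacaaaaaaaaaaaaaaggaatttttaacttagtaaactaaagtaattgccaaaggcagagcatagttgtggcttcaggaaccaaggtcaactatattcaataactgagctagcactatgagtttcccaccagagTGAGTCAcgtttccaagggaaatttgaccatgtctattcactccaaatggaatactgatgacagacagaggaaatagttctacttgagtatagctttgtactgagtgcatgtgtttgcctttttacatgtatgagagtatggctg
Cdh10 promoter, chr15:18820079-18820378, plus strand: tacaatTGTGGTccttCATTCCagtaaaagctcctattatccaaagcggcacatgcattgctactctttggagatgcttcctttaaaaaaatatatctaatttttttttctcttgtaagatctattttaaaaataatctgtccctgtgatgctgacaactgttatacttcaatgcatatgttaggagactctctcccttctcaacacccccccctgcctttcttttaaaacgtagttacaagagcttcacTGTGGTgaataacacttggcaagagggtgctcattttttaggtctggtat
Cdh18 promoter, chr15:23036213-23036512, plus strand: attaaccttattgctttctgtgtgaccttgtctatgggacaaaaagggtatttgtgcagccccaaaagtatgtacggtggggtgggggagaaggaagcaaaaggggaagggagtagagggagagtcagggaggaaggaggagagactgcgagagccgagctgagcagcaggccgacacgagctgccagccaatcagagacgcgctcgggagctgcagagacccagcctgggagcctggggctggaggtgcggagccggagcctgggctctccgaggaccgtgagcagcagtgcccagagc
Cdh18 intronic site called, chr15:23366370-23366669, plus strand: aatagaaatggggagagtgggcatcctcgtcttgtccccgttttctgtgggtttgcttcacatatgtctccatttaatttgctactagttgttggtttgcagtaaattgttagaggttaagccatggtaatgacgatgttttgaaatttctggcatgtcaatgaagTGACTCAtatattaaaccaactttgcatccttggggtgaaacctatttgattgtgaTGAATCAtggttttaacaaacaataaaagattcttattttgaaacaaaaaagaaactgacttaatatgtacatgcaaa
Cdh18 site of the highest level, chr15:23452208-23452507, plus strand: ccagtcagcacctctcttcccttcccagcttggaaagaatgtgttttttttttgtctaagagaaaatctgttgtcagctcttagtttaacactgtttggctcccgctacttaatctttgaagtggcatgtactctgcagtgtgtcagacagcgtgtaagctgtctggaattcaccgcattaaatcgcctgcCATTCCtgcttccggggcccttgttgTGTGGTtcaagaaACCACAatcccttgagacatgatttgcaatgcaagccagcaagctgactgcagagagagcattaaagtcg

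The promoters differed in base composition. The Cdh6 window was 53% GC with 8 CpG dinucleotides and the Cdh18 window 60.3% GC with 12, while the Cdh10 window was 37.7% GC with 2. The median over all 32851 promoter windows was 52.7% GC with 7 CpG. The 8 genes in the promoter table gave 10 windows, as Cdh7 had several. None of these 10 windows held the AP-1 motif, which 7.81% of all windows held. The TEAD motif was in 3 of the 10 (14.7% of all windows), the RUNX motif in 2 (16.8%) and the E-box in 2 (16.3%). Motifs were also sought in 300 bases centred on each site, which reach beyond the ends of shorter sites. AP-1 letters were found there at 25 of the 47 member sites (53.2%, against 37.7% of all sites) and TEAD letters at 18 (38.3% against 24.7%). The RUNX motif was in 10 (21.3% against 26.6%) and the E-box in 5 (10.6% against 18.9%). The motifs could overlap each other, and these shares are descriptions of letters, with no test.

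Values are the normalized read counts deposited per site and library. The 4 libraries had median site values of 51 to 53. From the spacing of the low values, 1 read was worth about 0.714 to 1.5 units, which put roughly 5.68 M (KO replicate 2) to 11.4 M (WT replicate 2) reads in sites, so values of KO replicate 2 rest on the fewest reads. Fibroblast markers had promoter sites at 9 of 10 genes, with summed values of 3292 to 3809 in WT and 3477 to 4067 in KO, and Lum had none. Muscle markers had none at 4 genes, and Ptprc and Spi1 of the blood list had none. Epithelial markers had promoter sites at 4 of 7 genes (234 to 367 in WT, 206 to 283 in KO), endothelial markers at 4 of 5 (281 to 349 and 226 to 289), blood markers at 2 of 4 (291 to 319 and 291 to 362) and neural and glial markers at 4 of 6 (754 to 954 and 723 to 915). The Hat1 promoter site had 390 and 384 in WT and 438 and 368 in KO (log2 fold change 0.05, limma p 0.722), and does not check the genotype.

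The surroundings of the 10 genes were sparse. The median number of other protein-coding genes within 1 Mb was 0.5, against 30 over all 21938 protein-coding loci, and Cdh8, Cdh9, Cdh10, Cdh11 and Cdh18 had 0. Median GC content of the locus was 36.7% against 44.3%, and median gene length was 177 kb against 17.4 kb, with Cdh12 the longest at 1140 kb. The median density was 3.11 sites per Mb against 52.4. Of the 10 loci, 30% had no site, against 10.8% of all protein-coding loci. The nearest sites to the loci without any were far away. From the ends of the Cdh8 locus they lay 3072 and 124 kb away, from those of Cdh9 191 and 1186 kb, and from those of Cdh19 394 and 296 kb.

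The member sites were mostly distal and of moderate height. An intron held 29 of the 47, 11 were within 3 kb of the TSS of some gene, and 7 were intergenic. The median value of a member site was 36.75, against 52 over all sites, and 19 member sites reached that value or more. Their median length was 382 bp against 440 bp, and the 300 bases centred on each were 41.7% GC against 48.3% in the median.

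Summed over the locus and divided by its length, accessibility ordered the genes as follows. Cdh11 stood at a mean of 166 units per 100 kb (113 and 216 in WT, 131 and 203 in KO) and Cdh18 at 157 (126 and 135 in WT, 162 and 204 in KO). Cdh10 followed at 83.7, with 95.1 and 50.8 in WT and 27.1 and 162 in KO. Cdh6 averaged 34.9, with 60.4 and 53.9 in WT and 8.57 and 16.7 in KO. Cdh11 and Cdh18 were both above Cdh10 in each of the 4 libraries. The order of Cdh11 and Cdh18 changed between libraries, as did that of Cdh10 and Cdh6. Cdh12 (8.30), Cdh7 (5.52) and Cdh20 (5.43) were far lower. Cdh6 was above Cdh12 in each library, although the lowest Cdh6 library lay within the range of Cdh12. For comparison the median protein-coding locus had 553 units per 100 kb. Cdh11, the gene known from fibroblasts, was thus at the 23rd percentile of all loci by level per length of locus. Its promoter site alone had a mean value of 130.5, at the 77th percentile of all sites. This was not particular to Cdh11. The sites at the starts of Cdh18 and Cdh10 had 209.5 (87th percentile) and 125.25 (76th), and that of Cdh6 had 50.25 (49th).

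**Figure D1:**
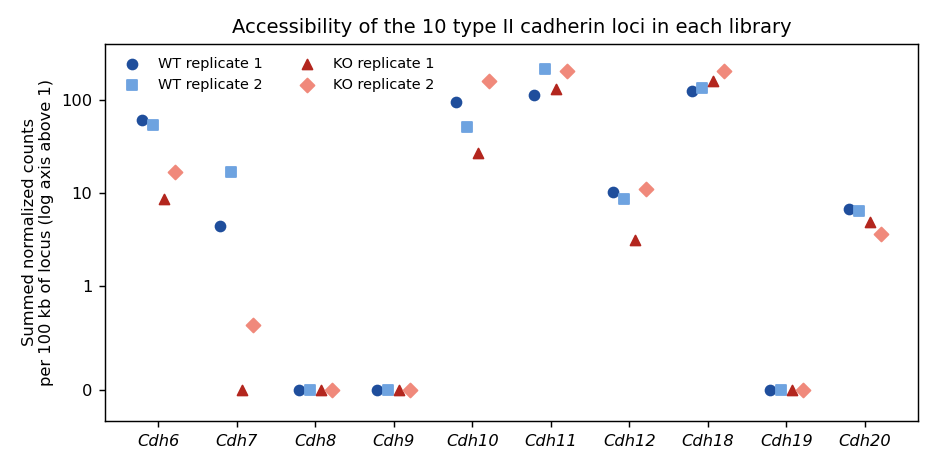
Summed normalized counts per 100 kb of locus (log axis above 1, with 0 shown) for each of the 10 genes, 1 point per library (WT in blue, KO in red). Cdh6, Cdh7 and Cdh20 have both KO points below both WT points, Cdh18 has both above, and Cdh8, Cdh9 and Cdh19 stand at 0.

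Over the 47 sites, KO and WT did not differ in one direction on the log2(value + 1) scale. The KO mean on this scale was lower at 24 sites and higher at 23, while 49.3% of all sites were lower and 50.7% higher. Means of the unlogged values can go the other way where the lines of a genotype differ. The median log2 fold change, KO against WT on the log2(value + 1) scale, was −0.001, against 0.006 over all sites. Limma with an intensity trend called 3 member sites, where 0.373% of all sites were called, taking a call as p under 0.01 before adjustment with a log2 fold change of 1 or more in size. Of these, 2 were lower in KO (0.302% of all sites), both at Cdh6, and 1 was higher (0.0705%), at Cdh18. At an unadjusted p under 0.05 there were 7 member sites, against 3.13% of all sites. No site of the whole table had a limma adjusted p under 0.05. Both KO values lay below both WT values at 6 member sites (12.8%, against 14.3% of all sites) and above them at 7 (14.9%, against 14.6%).

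The median hid a difference between the 2 KO lines. Against the WT mean, the median member site was at −0.35 in KO replicate 1 and at 0.49 in KO replicate 2. KO replicate 1 was lower and KO replicate 2 higher than the WT mean at 21 sites, the reverse held at 6, and both lines lay on the same side at 20 sites, 10 lower and 10 higher. The genes separated along these lines, with Cdh6 and Cdh7 low in both KO lines, Cdh18 mainly high, and Cdh10 and Cdh11 split.

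**Figure D2:**
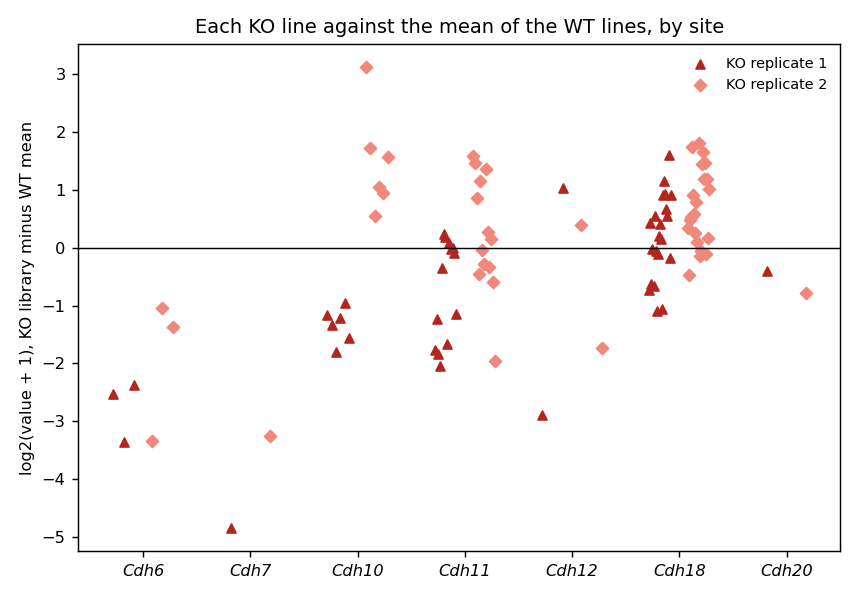
Difference of each KO library from the WT mean on the log2(value + 1) scale, 1 pair of points per site, for the 7 genes with sites. All Cdh6 and Cdh7 points lie below 0, and at Cdh10 the 6 points of KO replicate 1 lie below 0 and the 6 of KO replicate 2 above it.

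At the level of the locus, with the values of a gene's sites summed, no gene of the 7 had a limma adjusted p under 0.05 over 19576 loci, and neither did any other locus (0%). At an unadjusted p under 0.05 there were 3 of the 7, against 4.21% of all loci. Cdh6 and Cdh7 were lower in KO and Cdh18 was higher.

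At Cdh6, as at the single sites of Cdh7 and Cdh20, both KO lines were below both WT lines at every site. Its summed values were 148 and 132 in WT and 21 and 41 in KO. The WT mean was 140 ± 11.3 and the KO mean 31 ± 14.1 (SD, n = 2 lines), and the groups did not overlap. In a bulk library, fewer cells with an open site and a less open site per cell cannot be told apart. The log2 fold change was −2.21 (SE 0.50), with a limma p of 0.00369 and an adjusted p of 0.887. Leaving out 1 library at a time gave −2.68 to −1.74 with p from 0.00078 to 0.0485.

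The promoter site of Cdh6 (chr15:13173053-13173734), which spans the start of the gene and overlaps the promoter sequence given above, had 99 and 59 in WT and 14 and 29 in KO. Both WT values were above both KO values, and the log2 fold change was −1.87 (SE 0.49, limma p 0.00841, adjusted p 1). An intronic site 97 kb into the gene (chr15:13076709-13077312), whose centre holds both AP-1 and TEAD letters, had 29 and 54 in WT and 6 and 3 in KO, with −2.94 (SE 0.70, limma p 0.00508, adjusted p 1). The last Cdh6 site, 85 kb into the gene (chr15:13088720-13088958), had 20 and 19 in WT and 1 and 9 in KO, with −2.20 (SE 1.09, limma p 0.0882). The first 2 sites were called, and neither stayed under p 0.01 when any single library was left out (promoter p from 0.0178 to 0.111, intronic site p from 0.0138 to 0.0635).

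Around the gene the pattern was mixed. The nearest site outside the rule, downstream and 208 kb from the start, had 26 and 29 in WT and 11 and 9 in KO, again without overlap. Over 1 Mb downstream of the locus there were 54 sites, of which 34 were higher in KO, with a median of 0.11. Upstream, 1 site was found within 1 Mb of the locus, at −2.46 with both KO values below both WT values.

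Cdh7, a cadherin of the neural tube and motor neurons, had no site in its body or at its promoter. Its only site lay 89.6 kb upstream (chr1:109892332-109892801), with 14 and 54 in WT and 0 and 2 in KO. In reads these values come to about 16 and 76 in WT and about 0 and 1 in KO. The ratio of WT to KO was 56.9 at equal depth, with an exact 95% interval of 9.95 to 2270 that covers counting error only, and the WT lines alone differed by 1.87 on the log2 scale. The fitted log2 fold change of −4.05 (SE 1.34, limma p 0.0223 for the site, adjusted p 1) depends on the pseudocount and was −2.05 with a pseudocount of 8. For the locus fit, the limma p was 0.0237, with 0.222 without WT replicate 2 and 0.0533 with the shared line number as a block. The same pattern was seen at the next site upstream, just outside the rule at 158 kb from the start, with 43 and 72 in WT and 2 and 0 in KO. The 1 site within 1 Mb downstream was at −1.79, with overlapping groups.

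Cdh10, known from brain and its vessels, had 3 sites near its start. These also lie within 3 kb of a TSS of C030047K22Rik, so that they cannot be given to one of the genes. The site at the start (chr15:18820325-18821000) had 130 and 94 in WT and 47 and 230 in KO. The neighbouring sites had 48 and 19 against 8 and 45 (chr15:18818574-18818840) and 62 and 43 against 26 and 101 (chr15:18821403-18821719). KO replicate 1 was the lowest library at each of the 3, so WT and KO overlapped, and the log2 fold changes were −0.08 (SE 0.70), −0.62 (SE 0.87) and −0.005 (SE 0.65).

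The same order of libraries held across the Cdh10 locus. An intronic site (chr15:18993957-18994699) had 98 and 34 in WT and 19 and 173 in KO. Upstream, 2 weak sites in an intron of C030047K22Rik had 9 and 1 against 1 and 38, and 22 and 6 against 4 and 41. At all 6 sites WT replicate 1 and KO replicate 2 were above the other libraries, a pattern that 14.3% of all sites and 13 of the 47 member sites showed. The titles of these 2 lines share a line number, whose meaning the labels do not give. With that number as a block, the limma p for genotype at the Cdh10 locus was 0.879. The summed locus was 369 and 197 in WT and 105 and 628 in KO, with a log2 fold change of −0.07 (SE 0.79, limma p 0.934). It was 1.22 (p 0.0276) without KO replicate 1 and −1.35 (p 0.0235) without KO replicate 2.

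Cdh11 did not separate the genotypes. Its promoter site (chr8:102784832-102785652) had 84 and 179 in WT and 122 and 137 in KO, with a log2 fold change of 0.07 (SE 0.39, limma p 0.854). A site 1.5 kb into the gene (chr8:102783819-102784438), also within 3 kb of a TSS of Gm45258, had 93 and 126 in WT and 107 and 86 in KO, with −0.17 (SE 0.30, limma p 0.584). Both KO values lay inside the WT range at the first of these. The summed locus was 393 and 752 in WT and 456 and 708 in KO, with 0.06 (SE 0.35, limma p 0.862), and WT replicate 2 exceeded WT replicate 1 at 12 of the 13 sites, against 48.7% of all sites. At 5 of the sites, 4 downstream of the gene and 1 in an intron, KO replicate 2 was the highest library and KO replicate 1 the lowest. An example is the site downstream of the gene and 83.8 kb from its nearest annotated TSS, with 31 and 61 in WT and 18 and 122 in KO. The site nearest the edge of the rule, 99.3 kb from a start, had 14 and 37 in WT and 6 and 71 in KO and lay on the downstream side. The nearest site outside the rule lay on the upstream side, at 115 kb, and had 12 and 29 in WT and 16 and 32 in KO.

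Cdh12, a brain cadherin, spanned 1140 kb but held 2 sites. The higher one (chr15:20642929-20643449, an intron shared with Gm49685) had 103 and 102 in WT and 13 and 135 in KO. Only KO replicate 1 stood away from the other 3 libraries, and the log2 fold change was −1.25 (SE 0.97, limma p 0.246). The other had 24 and 6 in WT and 26 and 3 in KO. For the locus the log2 fold change was −0.66 (SE 0.62, limma p 0.322), with 0.23 without KO replicate 1 and −1.56 (p 0.00785) without KO replicate 2.

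Cdh20, known from the neural tube, had 1 weak intronic site 218 kb from its start (chr1:104986280-104986566), with 22 and 21 in WT and 16 and 12 in KO. The groups did not overlap, but the log2 fold change of −0.60 (SE 0.53) had a limma p of 0.303. As a locus its p was 0.466, and 0.0212 in limma without the trend.

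For Cdh8, Cdh9 and Cdh19, only flanking sites could be read. Cdh8 and Cdh9 are known from neurons and Cdh19 from Schwann cell precursors. The 1 site within 1 Mb of Cdh8 had 18 and 8 in WT and 26 and 15 in KO, which overlap. All 3 sites within 1 Mb of Cdh9 had a lower mean log2 value in KO, with a median of −1.45 but overlapping groups at each. The nearest had 27 and 1 in WT and 2 and 0 in KO. At Cdh19 the 3 flanking sites were also lower on average, with a median of −0.78, and the nearest had 36 and 4 in WT and 8 and 6 in KO. The farther upstream site had 432 and 431 in WT and 199 and 393 in KO, without overlap (−0.62, limma p 0.0866), and the downstream site is the one counted above beyond Cdh7. At the nearest sites of Cdh9 and Cdh19 the WT lines differed from each other by more than the genotype means did on the log2 scale.

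**Figure D3:**
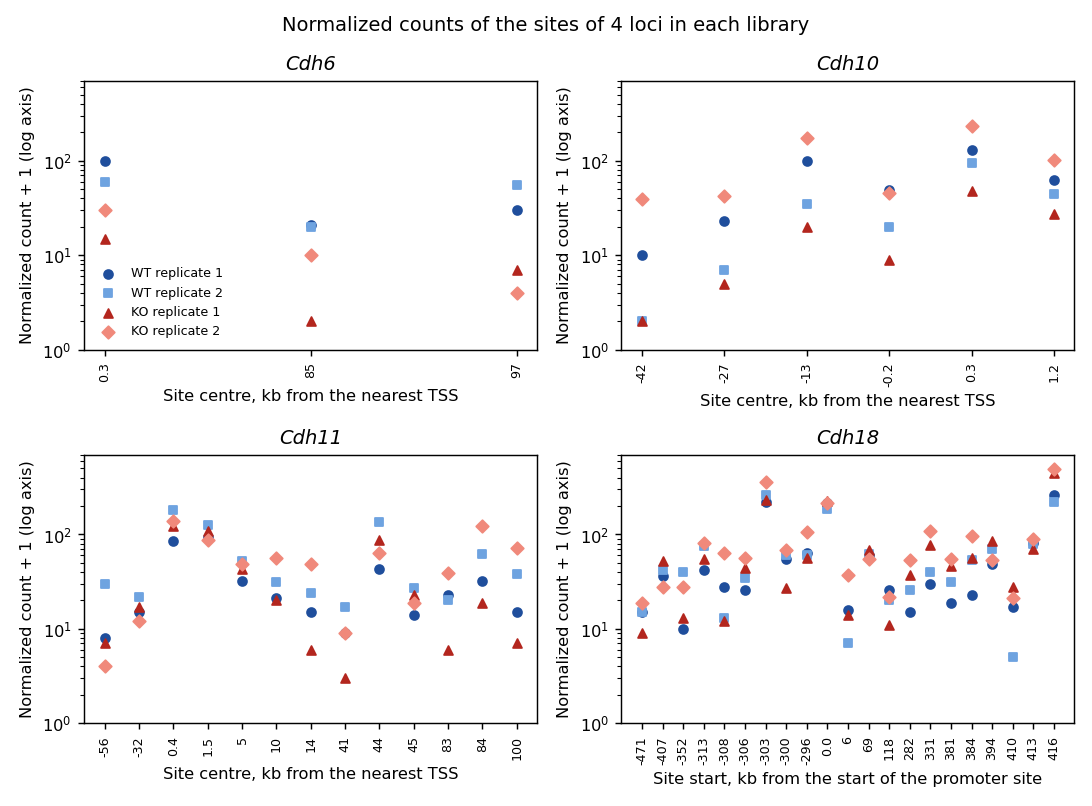
Normalized count plus 1 (log axis) of every site of Cdh6, Cdh10, Cdh11 and Cdh18 in each library, with sites in order along the x axis, labelled by distance in kb. KO points lie under WT points at all 3 Cdh6 sites, KO replicate 2 is highest at 5 of the 6 Cdh10 sites, and at Cdh18 KO points lie above WT points mainly at the right.

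Cdh18, a cadherin of the central nervous system, was the member with most sites and the only one with both KO lines above both WT lines over its locus. Its summed values were 1290 and 1384 in WT and 1657 and 2091 in KO. The WT mean was 1337 ± 66.5 and the KO mean 1874 ± 307 (SD, n = 2 lines). The log2 fold change was 0.48 (SE 0.14, limma p 0.0112, adjusted p 0.887). The p was 0.073 without WT replicate 1, 0.0513 without KO replicate 2, 0.0753 after the median of chromosome 15 was set to 0 in each library and 0.109 with the mean of log2 site values in place of the sum. On chromosome 15 the median site was 0.12 higher in KO, compared with 0.02 on chromosome 1 and 0.04 on chromosome 8. The KO lines differed in this. Against the mean of all libraries, the chromosome 15 median was 0.16 in KO replicate 1 and −0.03 in KO replicate 2, with −0.05 and −0.04 in WT.

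The promoter site of Cdh18 (chr15:23035758-23036886), which contains the whole promoter sequence above, had 212 and 186 in WT and 228 and 212 in KO. These values nearly coincided, with a log2 fold change of 0.15 (SE 0.19, limma p 0.476). The site of the highest level in the locus (chr15:23452029-23452686), near the 3' end of the gene, had 263 and 220 in WT and 452 and 490 in KO. The KO lines were higher by a log2 fold change of 0.97 (SE 0.16, limma p 0.000752, adjusted p 1), which did not reach the fold needed for a call. The called site (chr15:23366270-23366768), an intron with 2 matches to the AP-1 motif in its centre, had 29 and 39 in WT and 76 and 108 in KO. Its log2 fold change was 1.40 (SE 0.36, limma p 0.00771, adjusted p 1), and p was 0.0209 to 0.0629 when single libraries were left out, 0.014 after centring chromosome 15 and 0.0155 with the line number that a WT and a KO title share as a block.

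Of the 7 Cdh18 sites at which both KO values were above both WT values, 6 lay in the 3' part of the gene. The gene was divided by position relative to the promoter site, a division made after its values were seen and so without a test. Of the 8 sites more than 200 kb downstream of the promoter site, 7 were higher in KO, 6 with no overlap between groups, and the median was 1.06 (0.91 in KO replicate 1, 1.18 in KO replicate 2). Summed, these 8 sites had 490 and 518 in WT and 846 and 963 in KO. Of the 9 sites before the promoter site, 5 were higher in KO and 1 had no overlap, with a median of 0.25 (−0.11 in KO replicate 1, 0.53 in KO replicate 2). The 3 sites within 200 kb after the promoter site had a median of 0.004 and overlapping groups, with 2 higher in KO. Other sites of the 3' part were at 18 and 30 in WT and 45 and 54 in KO (chr15:23416770-23417106, also within 3 kb of a TSS of Gm49191) and at 22 and 53 in WT and 55 and 96 in KO (chr15:23419853-23420370). In the 5' part, the highest site (chr15:22732944-22733549, an intron) had 222 and 261 in WT and 232 and 361 in KO, so the groups overlapped (0.26, SE 0.25, limma p 0.327). The site at chr15:22730018-22730257 had 25 and 34 in WT and 43 and 56 in KO, without overlap (0.73, SE 0.39, limma p 0.106).

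Within 1 Mb downstream of the locus, 18 of 18 sites had a higher mean log2 value in KO, where 50.7% of all sites did. Their median was 0.49, lower for KO replicate 1 (0.20) than for KO replicate 2 (0.93). KO replicate 1 was below the WT mean at 4 of the 18 and KO replicate 2 at 3. At 2 of the 18 sites both KO values were above both WT values, against 14.6% of all sites. Upstream of the locus 3 of 5 sites were higher.

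To set the genes in their surroundings, the mean log2 fold change was taken over 25 consecutive sites centred on each site, and a mean under −0.58 was taken as lower accessibility in KO. The study used this window and cutoff to find HAT1-dependent accessibility domains in primary MEFs, joining regions only across gaps of up to 1 Mb, whereas no limit on gaps was set here, so the windows are not calls of such domains. There were 8 member sites in such windows (17%), against 3.40% of all sites. They were the 3 sites of Cdh6, the Cdh7 site and 4 of the 6 Cdh10 sites. Each window includes the gene's own sites, so a low mean does not describe the surroundings alone. The means of the surroundings without member sites were not computed. Neighbouring windows share most of their sites, and the low windows of Cdh10 hold sites of Cdh6 too, so the 8 are not independent. The windows were long because sites are sparse here, with a median span of 2.79 Mb against 0.46 Mb over all windows, and they spanned 6.10 Mb at Cdh6 and 11.5 Mb at Cdh7. The window mean at Cdh7 was −1.83, made up of −1.93 for KO replicate 1 and −1.73 for the other line. At Cdh6 the median window was −0.65, with −1.12 and −0.15, and at Cdh10 −0.65, with −1.27 and −0.04. The windows of Cdh11 ran from −0.32 to −0.01 and those of Cdh18 from 0.01 to 0.59. The number of member sites in such windows was 23 with KO replicate 1 alone and 1 with KO replicate 2 alone, and it was 1 with a pseudocount of 8.

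The other genes of the adhesion machinery were in denser surroundings. All 9 other cadherins examined (Cdh1, Cdh2, Cdh3, Cdh4, Cdh5, Cdh13, Cdh15, Cdh22 and Cdh24) had sites, 147 in all, with a median of 44 coding genes within 1 Mb. None of their loci had an unadjusted p under 0.05 and none of their sites lay in a window under −0.58, but 2 of their sites were called lower in KO. Of 9 catenins and partners, with 208 sites, 1 had an unadjusted p under 0.05, Ctnna3 (alpha-T-catenin), which was lower by −0.22 in KO (limma p 0.0397, adjusted p 0.887), and 1 of their sites was called lower. The delta protocadherins, adhesion molecules of similarly gene-poor regions (a median of 0.5 coding genes within 1 Mb), had sites at 9 of 10 genes. Of their 67 sites, 2 were called lower in KO and 31.3% lay in windows under −0.58, and 2 loci had an unadjusted p under 0.05, Pcdh20 (238 and 249 in WT, 39 and 92 in KO, lower, limma p 0.00425) and Pcdh7 (−0.38, limma p 0.0361). Pcdh9 had 481 and 606 in WT but 20 and 747 in KO, a split between the KO lines as at Cdh10. No locus of the 3 lists had an adjusted p under 0.05.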

How the data were processed

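ATAC-Seq libraries of 4 imMEF lines (2 WT, 2 KO) were analysed. According to the study's methods, paired-end reads were mapped to mm10 by the authors using BWA 0.7.12, peaks came from MACS2 2.1.0 and occupancy was tested in DESeq2. The deposited values are a score: normalized counts per merged site, scaled per library by the authors and rounded to whole numbers. Read filtering and the Tn5 offset are not given in the sources used here. The table's 4 columns of the authors' comparison (log2 fold changes, raw and shrunken, p-values and adjusted p-values) were not used.

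Sites and loci were fitted with limma 3.58.1 (intensity trend, R 4.3.3) on log2(value + 1), with genotype as the only term and Benjamini-Hochberg adjustment over all sites or loci. On simulated data with the same spread at every site, 200 of 82325 sites were changed by 2 on the log2 scale. The site fit recovered 160 of these and also called 832 unchanged sites, so a call alone is weak. This scale understates changes of low sites. Values are not reads, so depth is an estimate, and the counting interval at Cdh7 rests on it. Replicate numbers are names given in accession order. Named sites were all promoter sites of the genes, the highest site of each gene, all called sites, and the largest changes without overlap among sites at or above the median member value (up to 10, of which 6 existed). The genes, lists and tests were chosen with earlier results of these data known. The third Cdh6 site, further sites of Cdh10, Cdh11, Cdh12 and Cdh18, flanking sites and Pcdh9 were named after their values were seen. Alternatives were another pseudocount, scaling to equal totals, quantile normalization, chromosome centring, sites with a mean of at least 20, gene bodies alone, the mean of log2 site values, limma without the trend, windows of 51 sites and leaving out each library. A block by shared line number was added after the data were seen. Gene models were GENCODE M21 and sequences RefSeq GRCm38.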

Additional observations from a re-analysis of the deposited data

How the results depend on the processing

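Directions held for the Cdh6, Cdh7 and Cdh18 loci under every alternative that was run. The count of called member sites, 3, was 0 to 1 with single libraries left out. The number of member sites in windows under −0.58, 8, was 1 with a pseudocount of 8, 1 after quantile normalization, 0 among sites with a mean of at least 20, 4 in gene bodies alone, 1 with windows of 51 sites, and 1 to 23 with single libraries left out. The median over member sites ran from −0.351 to 0.485 across those.

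Several small log2 fold changes reversed, and the cause was not tested. The Cdh10 locus was at 0.101 after quantile normalization, 0.0778 as the mean of log2 site values and −1.35 to 1.22 with single libraries left out. The Cdh11 locus was at −0.00479 with equal totals, −0.247 as the mean of log2 site values and −0.404 to 0.531 with libraries left out. The Cdh20 locus was at 0.268 after quantile normalization, and the Cdh12 locus ran from −1.56 to 0.235 with libraries left out. The Cdh10 site at 18821403 was at 0.027 with a pseudocount of 8, 0.0347 after quantile normalization and −0.963 to 0.954 with libraries left out. On leaving out libraries, the Cdh10 sites at 18818574 and 18820325 ran from −1.8 to 0.555 and from −1.22 to 1.05, the Cdh11 sites at 102783819 and 102784832 from −0.39 to 0.0443 and from −0.466 to 0.616, and the Cdh12 site at 20642929 from −2.89 to 0.394. With 1 line left in an arm, that line is assumed to vary like the others.

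The titles of WT replicate 1 and KO replicate 2 share a line number while the other 2 lines share none, so the lines were not paired in the main fit. An alternative added after the data were seen took that shared number as a replicate block. It also put the other 2 lines together in a block, although they share no number. In that fit 2 member sites were called in place of 3, the Cdh18 site at 23366270 losing its call, and the Cdh7 locus had a limma p of 0.0533. Again 0 loci had an adjusted p under 0.05. With 2 lines per genotype, and low sites such as that of Cdh7 resting on few reads, small differences could not be resolved.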
